A study of Mus musculus with 5 samples.

Results

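Interleukin receptor genes are described here across the 5 libraries of a mouse leukaemia study, as the 39 genes, of 27526 in the deposited normalized table, whose symbol starts with Il, digits and r. The rule took in ligand-binding chains, shared signalling chains, decoys, accessory proteins and 1 secreted antagonist, Il1rn. All 39 were annotated as protein coding in GENCODE release M21 on GRCm38, the assembly also called mm10. Exons of 11 members overlap another annotated gene, by 2 bases for Il27ra to 1519 for Il12rb2, with 569, 571, 552, 728 and 242 bases for Il10rb, Il4ra, Il1rap, Il2rg and Il6ra, and reads there are uncertain. Il11ra2 and Il22ra1, with 0 and 1 counts over all libraries, are not among the 39. RNA came from leukaemia cells selected for the surface receptor Kit, in mice with leukaemia driven by AML1-ETO9a, a truncated product of the fusion of RUNX1 with RUNX1T1. The compared groups were Plcg1 -/- (conditional deletion; 3 libraries, deleted 2, 4 and 6) and Plcg1 +/+ (2 libraries, wild-type 1 and 3). Plcg1 encodes phospholipase C-γ1, a signalling enzyme downstream of many surface receptors, and every group carried AML1-ETO9a. Neither the deleting Cre nor the age of the mice nor the animals behind each library are given in the sources used here. P-values here thus rest on how far these 5 samples vary, and that variation may be technical.

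Interleukin receptors tell a blood cell which cytokines it can answer. Most are built from a private chain that binds the ligand and a chain shared by several receptors, such as the common γ chain, the common β chain or gp130, and pass the signal to Janus kinases and STAT factors. The IL-1 family uses another design, with a cytoplasmic TIR domain that recruits MyD88, and the IL-17 receptors recruit the adaptor Act1. In the myeloid lineages, IL-3, IL-5, IL-33 and IL-9 receptors are known from mast cells, basophils and eosinophils, while decoys such as Il1r2 are known from neutrophils and macrophages.

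The libraries held 37306507 to 57133771 gene counts. Plcg1 stood at 53.0, 26.9 and 37.1 CPM (counts scaled to the usual CPM total, with TMM factors for library composition) in deleted 2, 4 and 6, against 22.1 and 34 CPM in wild-type 1 and 3. These are gene totals that include exons outside any deleted part, so they cannot check the deletion, and group names below refer to labels. Kit, the selection marker, was at 671.7, 303.9 and 3.07 CPM in deleted 2, 4 and 6, against 26.7 and 32.1 CPM in both wild-type libraries, so it was low in 3 of the 5 libraries. The 5 stem and progenitor markers, Kit among them, summed to 1021, 592 and 99.5 CPM in deleted 2, 4 and 6, against 75.5 and 94.6 CPM in wild-type, and the 4 endothelial and fibroblast markers to 222.1, 106.2 and 1.18 CPM in deleted 2, 4 and 6, against 146.4 and 189.9 CPM in wild-type. In deleted 6 Procr alone gave 93.3 CPM of the stem and progenitor sum, while Kit, Cd34, Ly6a and Flt3 were each at 0.045 to 0.105 of the wild-type mean. Of the endothelial and fibroblast sum, Pecam1 gave 177.7, 105.9 and 1.04 CPM in deleted 2, 4 and 6. In wild-type 1 and 3 Pecam1 gave 144.6 and 189.6 CPM. Col1a1 and Col1a2 were at 23.8 and 20.5 CPM in deleted 2 and at no more than 1.20 CPM elsewhere. Cdh5 was at no more than 0.126 CPM. Deleted 6 was the highest or lowest library in 23 of the 32 tested interleukin receptor genes, as it was in 74.4% of all tested genes, so each call is given with and without it. Deleted 6 was also the only library of its sequencing lane in the file names, and lane and library cannot be told apart there.

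Across all 5 libraries no interleukin receptor gene passed the genome-wide test. edgeR's quasi-likelihood test called 0 of 32 tested members higher and 0 lower (adjusted p under 0.05), against 0.0% of all 16120 tested genes in either direction. At an unadjusted p under 0.05, 10 members were higher and 4 lower in the deleted libraries, against 9.44% and 5.42% of all genes. DESeq2 called 7 members higher and 1 lower (5.75% and 3.05% of all genes), and limma-voom with sample weights 9 and 4 (7.63% and 5.87%). Without deleted 6, edgeR called 8 of 32 members higher and 3 lower, against 7.89% and 5.07% of 15787 genes. The higher members were Il1rl1, Il5ra, Il1r1, Il12rb2, Il27ra, Il11ra1, Il7r and Il1rn, and the lower ones Il22ra2, Il12rb1 and Il17ra. Il5ra and Il22ra2 entered this fit only through the libraries where they were high, so their part in these counts is a description. All 8 members called by DESeq2 in the 5 libraries were among the 11 called by edgeR without deleted 6, as were 11 of the 13 called by limma-voom. Leaving out any other single library gave no call among the members in edgeR, and without wild-type 3 the adjusted p of each was 0.841, the highest over the alternatives. The lowest ran from 2.2e-08 for Il27ra with DESeq2 to 0.0216 for Il1rn without deleted 6. None of the 11 changed sign under any alternative that tested it, which left out Il5ra with the stricter filter, without deleted 2 and without deleted 4. Within lane 4, which held deleted 2, deleted 4 and wild-type 3, edgeR called Il1rl1 higher and Il22ra2 lower (1.26% and 0.779% of all genes). That fit has 1 residual degree of freedom, and the single wild-type library is assumed to vary as the deleted pair does. With no filter on low counts edgeR called 0 members higher and 1 lower, Il22ra2 (0.539% and 0.38% of all genes).

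**Figure D1:**
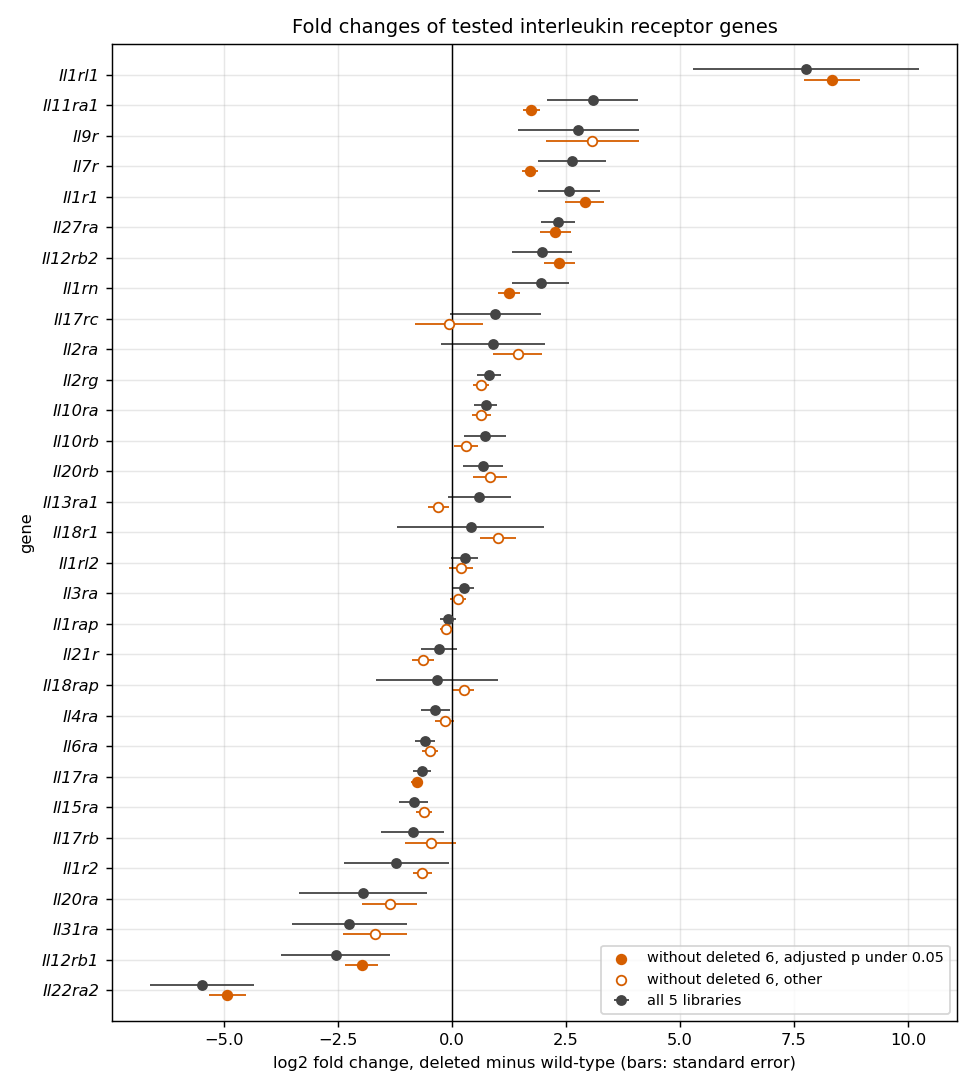
Log2 fold changes (x axis, deleted minus wild-type) of 31 of the 32 tested interleukin receptor genes (y axis), with standard errors as bars, from edgeR with all 5 libraries (grey) and without deleted 6 (orange, filled where the adjusted p was under 0.05). Il5ra is left out because the wild-type libraries held 1 count of it in sum; Il1rl1 lies farthest to the right and Il22ra2 farthest to the left in both fits.

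All 3 deleted libraries exceeded both wild-type ones in 11 of the 32 tested members (34.4%), against 22.4% of all tested genes. They were all lower in 8 (25.0%), against 23.7%. The other 13 overlapped. The median log2 fold change of the 32 members was 0.51 across all 5 libraries, and 0.22 without deleted 6, beside 0.01 and -0.01 for all tested genes. The sum over members was 1742, 1572 and 2432 CPM in deleted 2, 4 and 6, against 1109 and 1086 CPM in wild-type 1 and 3. Set per kilobase of exon, the order of the members differed between libraries. Il1rl1 stood first of 39 in deleted 2, at 69.6 CPM per kilobase, sixth in deleted 4 at 28.4, and at rank 22 in deleted 6 and ranks 28 and 27 in wild-type 1 and 3. Il7r led in deleted 6, at 161.5 CPM per kilobase, and Il2rg in deleted 4, at 64.2. Il4ra led in both wild-type libraries, at 54.3 and 43.9 CPM per kilobase, followed by Il2rg at 39.0 and 33.2. Il10rb (22.6 and 26.4) and Il1r2 (19.5 and 26.1) came next there and were within each other's range.

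**Figure D2:**
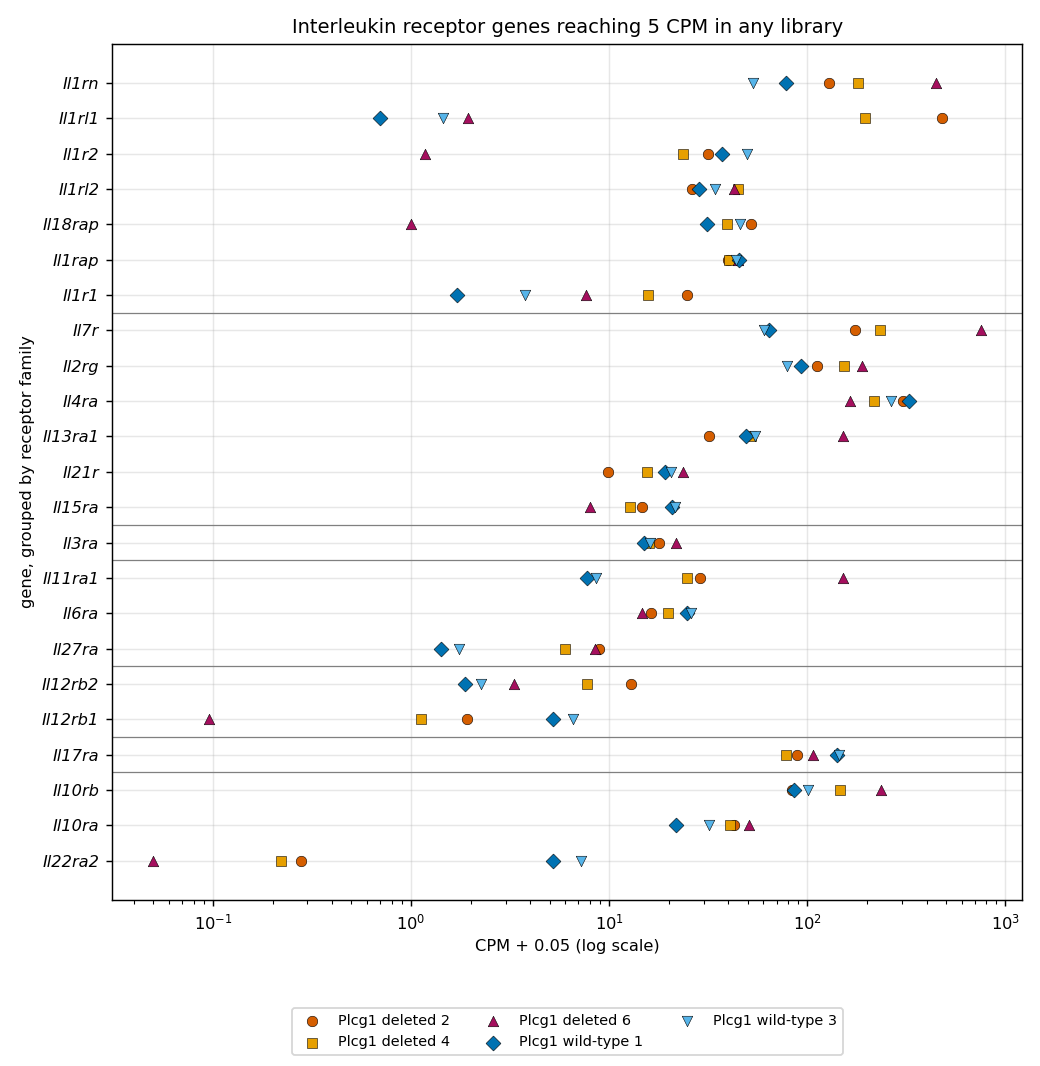
Level of the 23 interleukin receptor genes that reached 5 CPM in at least 1 library (rows, grouped by family), as CPM plus 0.05 on a log axis, with 1 point per library. Il1rl1 is near 200 CPM or above in deleted 2 and 4 and under 2 CPM in the other 3 libraries; Il7r, Il1rn and Il11ra1 are highest in deleted 6.

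The IL-1 receptor family held the largest difference. Il1rl1 encodes ST2, the chain that binds the alarmin IL-33 on mast cells, basophils and some lymphocytes (ENSMUSG00000026069.14; GRCm38 chromosome 1, 40429570 to 40465415, plus strand). Its level was 479.7, 195.5 and 1.90 CPM in deleted 2, 4 and 6, against 0.650 and 1.40 CPM in wild-type 1 and 3. The count behind it was 27403, 10364 and 84 in the deleted libraries and 27 and 78 in the wild-type ones. Deleted 2 and 4 were thus 467-fold and 190-fold above the wild-type mean, while deleted 6 was 1.85-fold above it. Across all 5 libraries the log2 fold change with its SE was 7.77 ± 2.48 (edgeR adjusted p = 0.286), and without deleted 6 it rose by 8.33 ± 0.61 (adjusted p = 0.00112). In lane 4 alone the value was 7.92 (adjusted p = 0.0410). The 8 mast cell and basophil markers were also higher in deleted 2 and 4 than in wild-type. Their summed level was 10350, 4695 and 32.3 CPM in deleted 2, 4 and 6, against 40.5 and 82.2 CPM in wild-type 1 and 3. Cpa3 alone gave 5957, 2355 and 23.05 CPM of that sum in deleted 2, 4 and 6. In deleted 6 Hdc and Ms4a2 were at 0.0515 and 0.0677 of the wild-type mean, and the rest of the list at 0.965 to 1.82. None of the 8 was at 0 in any library, and 3 of 8 were above both wild-type libraries in every deleted one. In such bulk samples more cells of a type and more RNA per cell cannot be told apart, and the part of mast cell RNA in this result was not tested.

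Il1rl1 has a pair of annotated starts 10059 bases apart, and gene counts do not tell which was used. The 250 bases before each start are shown, with those of Il5ra and Il9r, which also had their highest levels in deleted 2 and 4. Sequences are RefSeq's on GRCm38, read 5′ to 3′ on the gene's strand, with capitals for the GATA letters AGATAA or TGATAA and the RUNX letters TGTGGT on either strand. No GATA match overlaps a RUNX match.
Il1rl1, distal start, chr1:40429320-40429569, plus strand: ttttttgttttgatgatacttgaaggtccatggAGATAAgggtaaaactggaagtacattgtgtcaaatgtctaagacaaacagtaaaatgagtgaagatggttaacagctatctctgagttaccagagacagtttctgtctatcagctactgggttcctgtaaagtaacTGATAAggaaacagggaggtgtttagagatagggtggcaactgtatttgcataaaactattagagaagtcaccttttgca
Il1rl1, proximal start, chr1:40439379-40439628, plus strand: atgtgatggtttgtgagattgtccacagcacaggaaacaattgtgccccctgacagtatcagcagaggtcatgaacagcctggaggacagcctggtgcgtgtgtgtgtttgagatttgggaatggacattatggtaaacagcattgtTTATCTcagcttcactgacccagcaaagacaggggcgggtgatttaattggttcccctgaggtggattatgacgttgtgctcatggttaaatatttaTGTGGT
Il5ra, chr6:106749038-106749287, minus strand: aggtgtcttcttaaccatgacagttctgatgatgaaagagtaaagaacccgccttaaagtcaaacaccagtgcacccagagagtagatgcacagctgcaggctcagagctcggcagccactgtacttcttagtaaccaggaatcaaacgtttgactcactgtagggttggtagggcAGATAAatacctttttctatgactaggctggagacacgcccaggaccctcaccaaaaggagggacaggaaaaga
Il9r, chr11:32200280-32200529, minus strand: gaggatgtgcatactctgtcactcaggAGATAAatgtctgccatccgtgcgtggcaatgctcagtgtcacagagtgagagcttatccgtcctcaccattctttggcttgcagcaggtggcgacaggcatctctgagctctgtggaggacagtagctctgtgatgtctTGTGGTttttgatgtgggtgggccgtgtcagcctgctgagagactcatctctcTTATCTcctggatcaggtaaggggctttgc
The distal Il1rl1 window held GATA letters starting 217 and 80 bases before the start. Its proximal window held 1 GATA match, at 103 bases, and a RUNX match at 6 bases. Il5ra had 1 GATA match, at 74 bases, and Il9r had 2, at 223 and 30 bases, with a RUNX match at 83 bases. Of 40 windows for the 32 matched members, 11 (27.5%) held GATA letters, against 16.6% of 32851 windows of that length for all genes. RUNX letters were in 6 (15.0%, against 14% of all), the STAT letters TTCNNNGAA in 5 (12.5%, against 7.02%) and the ETS letters GGAAGT in 13 (32.5%, against 19.7%). These letters are a description and not sites of binding. Il2rb, Il10ra, Il10rb, Il12rb1, Il17ra, Il22ra2 and Il27ra have no entry in that table. The windows shown were chosen after the levels were seen. Il1r1, Il12rb2, Il18r1 and Il2ra were also highest in deleted 2 and 4, and their windows held no GATA letters. Il20rb was highest there too, and its window held GATA letters.

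Il1rl1 sits in a row of 6 IL-1 receptor family genes within 477.6 kilobases of chromosome 1 (40074079 to 40551705), all on the plus strand. Of the other genes in the row, Il1r1 had the same order of libraries as Il1rl1 over a smaller range, and the rest had other orders. Il1r1, the signalling receptor for IL-1α and IL-1β, was at 24.8, 15.7 and 7.57 CPM in deleted 2, 4 and 6, against 1.66 and 3.71 CPM in wild-type 1 and 3. All deleted libraries lay above both wild-type ones. Its log2 fold change with its SE was 2.57 ± 0.68 (edgeR adjusted p = 0.236) across all 5 libraries and 2.91 ± 0.43 (adjusted p = 0.00854) without deleted 6. Il1r2, the decoy that binds IL-1 without signalling, was at 31.3, 23.6 and 1.13 CPM in deleted 2, 4 and 6, against 37.2 and 49.8 CPM in wild-type. The groups did not overlap: deleted 2 and 4 stood at 0.721 and 0.542 of the wild-type mean and deleted 6 at 0.026. The log2 fold change with its SE was -1.22 ± 1.16 (edgeR adjusted p = 0.608) with deleted 6 and -0.65 ± 0.21 (adjusted p = 0.0996) without it. Il1rl2, the IL-36 receptor, overlapped between the groups, at 26.2, 44.8 and 42.4 CPM in deleted 2, 4 and 6, against 28.3 and 34.1 CPM in wild-type.

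The IL-18 receptor pair closes the row. Il18rap, its accessory chain, was at 51.7, 39.3 and 0.949 CPM in deleted 2, 4 and 6, against 31.0 and 45.9 CPM in wild-type, so deleted 6 stood far below the other 4, whose levels overlapped. The ligand-binding chain Il18r1 was low throughout, at 2.36 and 2.32 CPM in deleted 2 and 4, against 0.867 and 1.48 CPM in wild-type. Deleted 6 had 0 Il18r1 counts, where 3 counts would be 0.0678 CPM. Beside the low values of Il1r2 and Il18rap in deleted 6, the summed level of 8 neutrophil and promyelocyte markers was 10657, 11977 and 1353 CPM in deleted 2, 4 and 6, against 14387 and 15536 CPM in wild-type 1 and 3. In deleted 6, 1276.9 CPM of that sum was Mmp8, and the other 7 markers were at 0.00029 to 0.0191 of the wild-type mean. None of the 8 was at 0 in any library, 4 of 8 were below both wild-type libraries in every deleted one and 1, Mmp8, above, and their part in these levels was not tested.

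**Figure D3:**
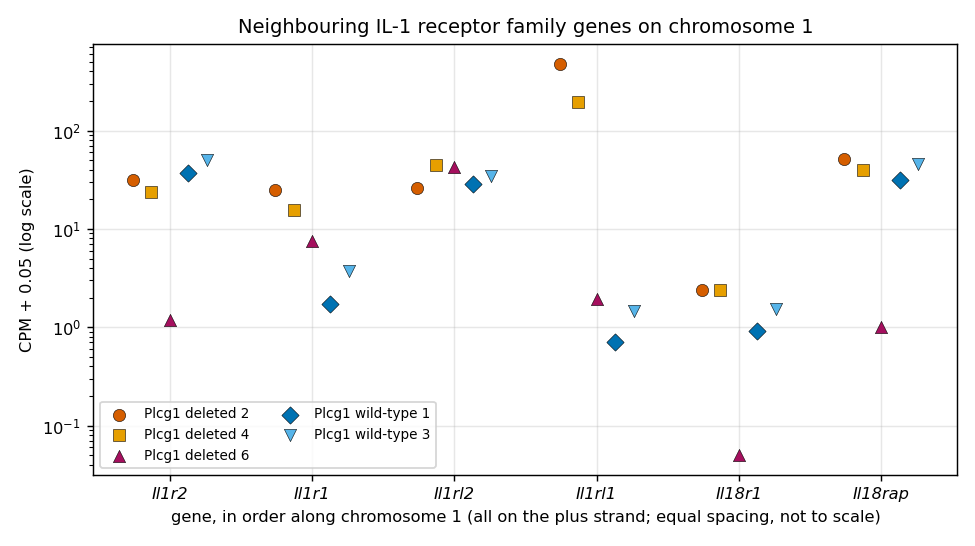
Level (CPM plus 0.05, log axis) of the 6 IL-1 receptor family genes of chromosome 1 in their order along the chromosome, with 1 point per library. Il1rl1 is far higher in deleted 2 and 4 than elsewhere, Il1r1 is higher in all 3 deleted libraries, and Il1r2, Il18r1 and Il18rap are lowest in deleted 6.

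Outside the row, Il1rap, the accessory chain that the IL-1, IL-33 and IL-36 receptors share, had nearly even levels. Its level was 39.6, 40.4 and 44.8 CPM in deleted 2, 4 and 6, against 45.0 and 43.5 CPM in wild-type, a log2 fold change of -0.09 ± 0.17 (SE; edgeR adjusted p = 0.789). The partner of Il1rl1 in the IL-33 receptor thus stayed within 39.6 to 45.0 CPM while Il1rl1 itself spanned 0.650 to 479.7 CPM. Il1rn, the secreted antagonist that blocks Il1r1, was at 127.9, 181.2 and 447.7 CPM in deleted 2, 4 and 6, against 77.9 and 53.2 CPM in wild-type 1 and 3. It was higher in every deleted library, and most so in deleted 6. The log2 fold change was 1.94 ± 0.63 (adjusted p = 0.286) across all 5 libraries, and Il1rn rose by 1.25 ± 0.24 (adjusted p = 0.0216) without deleted 6. Il1rapl1 and Il1rapl2, receptors known from neurons, had at most 5 and 7 counts in a library and were not tested. In all, 8 of the 10 members of the family were tested, and 3 were called higher and 0 lower without deleted 6, against 7.89% and 5.07% of all genes.

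Among receptors that use the common γ chain, the IL-7 receptor stood out. Il7r, the IL-7 receptor α chain (ENSMUSG00000003882.4; chromosome 15, 9505788 to 9530176, minus strand), is best known from lymphoid progenitors and T cells and also forms the TSLP receptor. Its level was 173.6, 232.1 and 753.0 CPM in deleted 2, 4 and 6, against 64.3 and 60.5 CPM in wild-type 1 and 3. All 3 deleted libraries were higher, by 2.78-fold to 12.1-fold over the wild-type mean. The log2 fold change with its SE was 2.63 ± 0.75 (edgeR adjusted p = 0.262) across all 5 libraries, and Il7r rose by 1.71 ± 0.17 (adjusted p = 0.00248) without deleted 6. Of the 6 T cell markers, Cd3e and Cd3g had 0 counts in all libraries, and the list summed to 3.57, 2.96 and 3.59 CPM in deleted 2, 4 and 6, against 4.26 and 4.50 CPM in wild-type. The 5 B cell markers summed to 3.96, 6.79 and 0 CPM in deleted 2, 4 and 6, against 15.9 and 21.2 CPM in wild-type, and the part of lymphoid RNA in the Il7r level was not tested.

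Il2rg, the common γ chain itself, was at 112.5, 153.3 and 188.1 CPM in deleted 2, 4 and 6, against 93.2 and 79.3 CPM in wild-type 1 and 3. The groups did not overlap, with a log2 fold change of 0.81 ± 0.27 (SE; edgeR adjusted p = 0.295; 0.0730 without deleted 6). Il4ra, the IL-4 and IL-13 receptor chain, was high in every library, at 304.3, 217.6 and 163.6 CPM in deleted 2, 4 and 6, against 326.1 and 263.6 CPM in wild-type, and the groups overlapped. Its partner for IL-13, Il13ra1, was at 32.0, 51.7 and 151.9 CPM in deleted 2, 4 and 6, against 49.1 and 54.5 CPM in wild-type. Only deleted 6 was high, and the log2 fold change had the opposite sign without it (0.60 and -0.30). Il15ra, which presents IL-15 to neighbouring cells, was lower in every deleted library, at 14.7, 12.7 and 8.0 CPM in deleted 2, 4 and 6, against 20.8 and 21.5 CPM in wild-type, without a call in edgeR (adjusted p = 0.321, and 0.0714 without deleted 6). Il21r, the IL-21 receptor, was at 9.82, 15.4 and 23.7 CPM in deleted 2, 4 and 6, against 19.2 and 20.4 CPM in wild-type, and overlapped.

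The remaining γ chain receptors, and the IL-13 decoy grouped with them, were near the limit of detection. Il9r, whose ligand supports mast cells, had 86, 42 and 19 counts in deleted 2, 4 and 6, against 0 and 14 in wild-type 1 and 3, which is at most 1.51 CPM. Every deleted library was above both wild-type ones, and the adjusted p was 0.386 (0.103 without deleted 6, edgeR). Il9r passed the filter on low counts only with the deleted libraries, where it was high. Its values are therefore a description of those counts. Il2ra, the IL-2 receptor α chain, had 104, 41 and 4 counts in the deleted libraries and 19 and 28 in wild-type. Its signalling partner Il2rb had at most 8 counts in a library and the IL-13 decoy Il13ra2 at most 2, and neither was tested. This group, counted with the IL-13 chains, had 10 members, of which 8 were tested. Il7r was the single call, a higher one, without deleted 6, where 7.89% of all genes were called higher.

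The common β chain group had 2 members, of which 1 was even across the groups. Il3ra, the IL-3 receptor α chain, was at 17.8, 15.8 and 21.7 CPM in deleted 2, 4 and 6, against 14.9 and 15.9 CPM in wild-type 1 and 3 (log2 fold change 0.26 ± 0.23, SE; edgeR adjusted p = 0.589). Its signalling partners, which are not members, were higher in every deleted library. Csf2rb, the β chain shared by the IL-3, IL-5 and GM-CSF receptors, was at 1432, 964.5 and 1641 CPM in deleted 2, 4 and 6, against 439.9 and 394.1 CPM in wild-type, and without deleted 6 it rose by 1.53 ± 0.22 (adjusted p = 0.00780). Csf2rb2, the second β chain of mice, used by IL-3 alone, was at 639.9, 310.1 and 381.7 CPM in deleted 2, 4 and 6, against 64.9 and 67.0 CPM in wild-type, and rose by 2.86 ± 0.33 (adjusted p = 0.00398) in that fit. Both stayed above the threshold across all 5 libraries (adjusted p = 0.173 and 0.133), and the pair are close copies, so their counts are uncertain. Il5ra, the private chain of the IL-5 receptor of eosinophils and basophils, had 76, 62 and 0 counts in deleted 2, 4 and 6, against 0 and 1 count in wild-type 1 and 3. It reached no more than 1.33 CPM and passed the filter on low counts only through deleted 2 and 4, where it was high. Its call without deleted 6 (edgeR adjusted p = 0.00433) is therefore a description of those counts. The 4 eosinophil markers summed to 21.6, 25.9 and 4.70 CPM in deleted 2, 4 and 6, against 12.8 and 50.2 CPM in wild-type 1 and 3. They overlapped between the groups, 1 of the 4 was above and 1 below in every deleted library, and 2 were at 0 in deleted 6 and 1 in wild-type 1.

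Among chains that signal through gp130 or resemble it, Il11ra1 and Il27ra were higher in the deleted libraries and Il6ra and Il31ra lower, with no overlap in any of the 4. Of all tested genes, 22.4% had every deleted library above both wild-type ones and 23.7% had every one below. Il11ra1, the IL-11 receptor α chain (chromosome 4, 41699989 to 41769474, plus strand), was at 28.6, 24.8 and 152.0 CPM in deleted 2, 4 and 6, against 7.64 and 8.50 CPM in wild-type 1 and 3. Deleted 6 was 18.9-fold above the wild-type mean and the other deleted libraries 3.54-fold and 3.07-fold. The log2 fold change with its SE was 3.08 ± 0.99 (edgeR adjusted p = 0.286) across all 5 libraries, and Il11ra1 rose by 1.74 ± 0.19 (adjusted p = 0.00301) without deleted 6. A close copy, Il11ra2, had 0 counts in every library, and reads that align to both copies equally were left out of gene counts.

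Il27ra, the IL-27 receptor chain, had the smallest unadjusted p of the members across all 5 libraries (0.00129, adjusted 0.133, edgeR). Its level was 8.79, 5.90 and 8.41 CPM in deleted 2, 4 and 6, against 1.37 and 1.69 CPM in wild-type 1 and 3. All 3 deleted libraries were 3.85-fold to 5.74-fold above the wild-type mean, and the log2 fold change was nearly the same with deleted 6 (2.33 ± 0.37, SE) and without it (2.27 ± 0.33, adjusted p = 0.00820). Il6ra, the IL-6 receptor α chain, was at 16.2, 19.7 and 14.5 CPM in deleted 2, 4 and 6, against 24.5 and 25.9 CPM in wild-type, and was not called (adjusted p = 0.322, and 0.134 without deleted 6). Il31ra, the IL-31 receptor chain, was at no more than 1.28 CPM. The partner of Il11ra1, Il27ra and Il6ra is gp130, encoded by Il6st. Il6st was at 93.0, 106.6 and 154.1 CPM in deleted 2, 4 and 6, against 87.8 CPM in wild-type 1 and 100 CPM in wild-type 3. Its log2 fold change was 0.33 ± 0.27 (edgeR adjusted p = 0.564).

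For Il7r, Il1rn, Il11ra1 and Il13ra1, which were highest in deleted 6, macrophage markers are set alongside. The 8 macrophage markers summed to 1429, 2865 and 4289 CPM in deleted 2, 4 and 6, against 1208 and 1387 CPM in wild-type 1 and 3. In deleted 6 Cd68 alone gave 2449 CPM of that sum. C1qa and Fcgr1 were at 0.356 and 0.135 of the wild-type mean there, and the rest of the list at 1.29 to 7.31. In deleted 2 Fcgr1, Mertk, C1qa, Cd14 and Csf1r were at 0.113 to 0.735 of it, and Cd68, Adgre1 and Mrc1 at 1.01 to 7.06. All 3 deleted libraries exceeded both wild-type ones for 2 of the 8 and were lower for 1, none was at 0 in any library, and their part in these receptor levels was not tested.

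The chains of the IL-12 receptor went opposite ways. Il12rb1, which IL-12 and IL-23 share, was at 1.86, 1.07 and 0.0452 CPM in deleted 2, 4 and 6, against 5.18 and 6.53 CPM in wild-type 1 and 3. Without deleted 6 it fell by 1.98 ± 0.37 on the log2 scale (SE; edgeR adjusted p = 0.0190), and across all 5 libraries the change was -2.55 ± 1.19 (adjusted p = 0.378). Il12rb2, the chain of the IL-12 receptor that recruits STAT4, was at 12.8, 7.71 and 3.25 CPM in deleted 2, 4 and 6, against 1.83 and 2.21 CPM in wild-type. Without deleted 6 it rose by 2.35 ± 0.33 (adjusted p = 0.00766), and across all 5 libraries the change was 1.97 ± 0.66 (adjusted p = 0.292). Il12rb2 shares 1519 bases of exon with Serbp1 on the opposite strand, and the kit did not mark strand, so the genes' reads cannot be told apart there. Serbp1 was at 347.6, 315.0 and 121.9 CPM in deleted 2, 4 and 6, against 484.8 and 408.0 CPM in wild-type. The IL-23 chain Il23r had at most 7 counts in a library and was not tested. NK cell markers, known to go with these receptors, were almost absent apart from Nkg7: Ncr1 had 0 counts in all libraries, and the 4 summed to 33.0, 27.2 and 0.429 CPM in deleted 2, 4 and 6, against 74.4 and 104.7 CPM in wild-type.

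**Figure D4:**
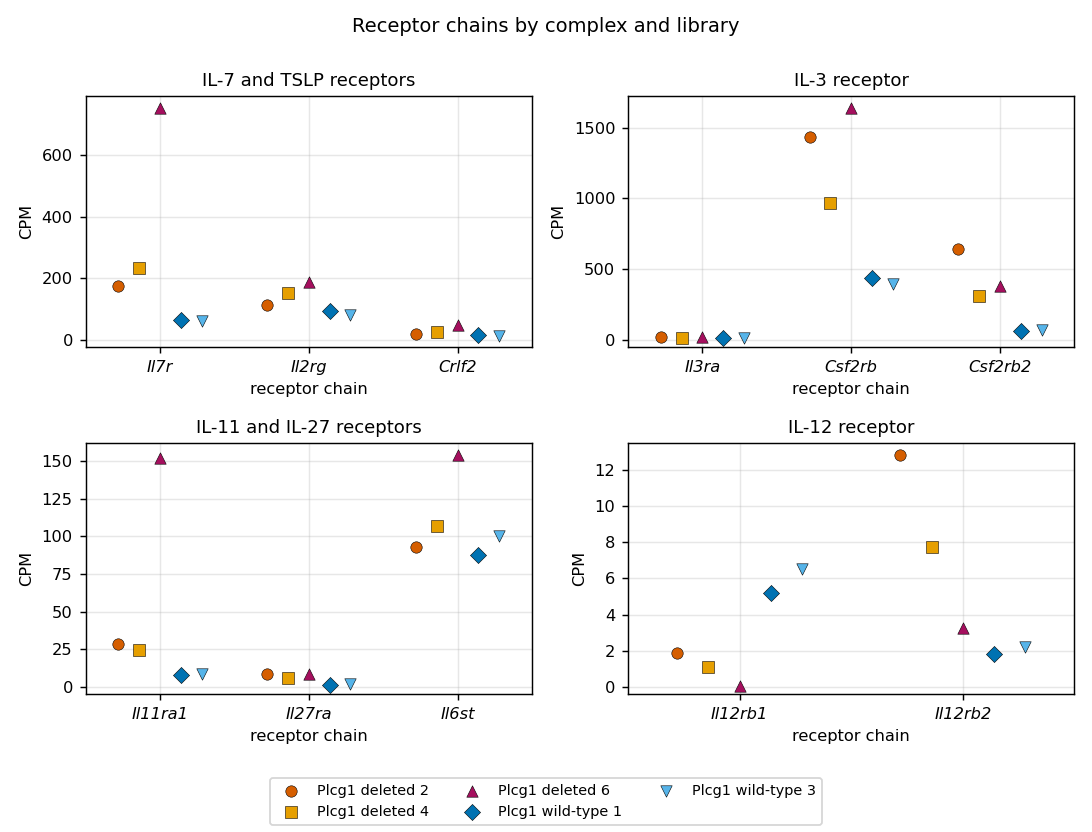
Level in CPM (y axis, linear) of receptor chains grouped by the complex they form, with 1 point per library, including the partner chains Crlf2, Csf2rb, Csf2rb2 and Il6st. Il3ra lies between 14.9 and 21.7 CPM in all libraries and Il6st between 87.8 and 154.1 CPM, while Csf2rb and Csf2rb2 are higher in all 3 deleted libraries, and Il12rb1 and Il12rb2 lie in opposite order.

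Of the IL-17 receptors, Il17ra alone was well expressed. Il17ra, the chain common to the family, was at 88.2, 78.0 and 106.9 CPM in deleted 2, 4 and 6, against 140.9 and 144.7 CPM in wild-type 1 and 3. Every deleted library was lower, at 0.546 to 0.749 of the wild-type mean, and without deleted 6 the gene fell by 0.77 ± 0.13 on the log2 scale (SE; edgeR adjusted p = 0.0143; 0.277 across all 5 libraries). Il17rc, the partner of Il17ra for IL-17A, had at most 48 counts in a library, and Il17rb, the IL-25 receptor, at most 22. Il17rd and Il17re, with at most 20 and 6 counts, were not tested. Without deleted 6, 1 of the 3 tested members was called lower and 0 higher, against 5.07% and 7.89% of all genes.

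Among class II receptors, the decoy Il22ra2 had the largest fall of any member. Il22ra2 encodes the IL-22 binding protein, a soluble inhibitor known from dendritic cells (ENSMUSG00000039760.8; chromosome 10, 19621998 to 19634681, plus strand). Its level was 0.228, 0.170 and 0 CPM in deleted 2, 4 and 6, against 5.18 and 7.16 CPM in wild-type 1 and 3. The counts were 13, 9 and 0 in deleted 2, 4 and 6 and 215 and 398 in wild-type 1 and 3. Its log2 fold change with its SE was -5.48 ± 1.13 (edgeR adjusted p = 0.181) across all 5 libraries. It fell by 4.92 ± 0.40 without deleted 6 (edgeR adjusted p = 0.00137), and in lane 4 alone the value was -5.14. With all 5 libraries and without deleted 6, Il22ra2 passed the filter on low counts only with the wild-type libraries, where it was high. Its call without deleted 6 is therefore a description of those counts. The membrane receptor that Il22ra2 competes with, Il22ra1, had at most 1 count in a library.

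Il10ra, the IL-10-binding chain, was at 42.5, 40.5 and 51.0 CPM in deleted 2, 4 and 6, against 21.7 and 31.9 CPM in wild-type 1 and 3. It was higher in every deleted library but was not called (edgeR adjusted p = 0.300, and 0.0982 without deleted 6). The shared chain Il10rb, which also serves the IL-22 and interferon-λ receptors, was at 83.4, 146.7 and 234.2 CPM in deleted 2, 4 and 6, against 86.0 and 100.7 CPM in wild-type, and overlapped through deleted 2. Il20ra and Il20rb, the chains of the IL-20 receptor, were at no more than 2.75 and 4.34 CPM. Of the 5 class II members, all tested, 1 was called lower and 0 higher without deleted 6, against 5.07% and 7.89% of all genes. The lower call was Il22ra2, which passed the filter on low counts only with the wild-type libraries, so this count is a description.

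Genes around the receptors were counted from lists of partner chains, of Janus kinases and adaptors, and of ligands, 57 genes in all, of which 39 were tested. With all libraries in the fit, edgeR called 0 in either direction. An unadjusted p under 0.05 was reached by 8 higher and 5 lower genes, against 9.44% and 5.42% of all genes. DESeq2 called 6 higher and 1 lower (5.75% and 3.05% of all genes), and limma-voom 6 and 5 (7.63% and 5.87%). Without deleted 6 the counts were 9 higher and 3 lower, against 7.89% and 5.07% of all genes. The higher count includes Il7 and Il4, whose limit is given below. Among 9 partner chains the calls were Csf2rb and Csf2rb2 higher and Ifnlr1, the interferon-λ receptor chain, lower. Crlf2, the TSLP-binding partner of Il7r, was higher in every deleted library, at 19.1, 24.2 and 48.7 CPM in deleted 2, 4 and 6, against 16.4 and 12.4 CPM in wild-type, without a call (adjusted p = 0.357, and 0.129 without deleted 6). Among 12 kinases and adaptors, Jak2, the kinase bound to the common β chain, was at 139.8, 121.9 and 87.3 CPM in deleted 2, 4 and 6, against 62.2 and 76.6 CPM in wild-type, and was called higher without deleted 6 (0.93 ± 0.16, SE; adjusted p = 0.0141). Tollip, an adaptor that restrains IL-1 receptor signalling, was called higher there too, and Traf3ip2, which encodes the IL-17 receptor adaptor Act1, lower.

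Of the 36 ligands 18 were tested, of which edgeR called 5 higher and 1 lower once deleted 6 was left out, against the same 7.89% and 5.07% of all genes. Il12a, the IL-12 subunit p35, was the lower one. Its level was 1.89, 2.19 and 0.0226 CPM in deleted 2, 4 and 6, against 17.5 and 17.5 CPM in wild-type 1 and 3 (adjusted p = 0.00112). Il33, the ligand of Il1rl1, was near the limit of detection in every library, with 4, 1 and 1 counts in deleted 2, 4 and 6, against 11 and 22 in wild-type. The ligand of Il7r, Il7, was at 1.58, 1.08 and 2.53 CPM in deleted 2, 4 and 6, against 0.193 and 0.0360 CPM in wild-type, and was called higher (adjusted p = 0.0262). Il6, Il4, Lif and Osm were the other higher calls. Wild-type 1 and 3 held 8 and 2 counts of Il7, and 5 and 4 counts of Il4. Il7 and Il4 passed the filter on low counts only with the deleted libraries, where they were high. Their calls are therefore a description of those counts.

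The genes nearest in pattern were found by the distance between centred log2 (CPM + 0.1) profiles over the 5 libraries, for the 3 members with the smallest unadjusted p. For Il27ra these were C430002N11Rik, Furin and Rarres1, at distances of 0.24, 0.29 and 0.36. C430002N11Rik was at 0.473, 0.264 and 0.384 CPM in deleted 2, 4 and 6, against 0 CPM in wild-type 1 and 3. Its distance therefore depends on the added 0.1. Furin was at 766.4, 429.2 and 607.5 CPM in deleted 2, 4 and 6, against 129.8 and 146.1 CPM in wild-type 1 and 3, in the same order of libraries as Il27ra. For Il22ra2 they were Cfap57, Cdr2l and Arhgef28, at 0.74 to 0.79, and for Il1r1 Ddah2, Ntn4 and AI854703, at 0.66 to 0.77. AI854703 was also near the limit of detection, at no more than 0.604 CPM and at 0 CPM in wild-type 1. A distance over 5 libraries is a description of these samples.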

How the data were processed

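Per the labels' protocols, cDNA came from a low-input SMART-Seq v4 kit and was made into Nextera XT libraries, neither of which marks strand. Per the submitters' processing notes, STAR, bcl2fastq 1.8.4, DESeq2 1.12.4 and mm10 were used; no source used here gives the annotation or the counting options. The authors deposited raw counts per gene for each library, a table of normalized signal (these counts divided by 1 factor per library, checked on the values) and a log2 table made by a transformation that is not named. Symbols came from the deposited normalized table. The log2 table was not analysed further.

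Counts of 46603 genes were tested with edgeR 4.0.16 (R 4.3.3): filterByExpr, TMM factors, quasi-likelihood F test of genotype over all libraries, Benjamini-Hochberg adjustment over all 16120 tested genes and a call at an adjusted p under 0.05. Each standard error is the log2 fold change divided by the root of F. Rows that name no gene were left out: 5.89% to 8.09% of reads in a library had no feature, 2.36% to 2.78% were ambiguous, 2.48% to 4.13% were not aligned and 13.0% to 15.1% aligned to several places. A count of 3 equals 0.0525 to 0.0723 CPM, which covers counting error only. Exon lengths and coordinates are from GENCODE M21 and promoter windows from RefSeq (GRCm38.p6). Alternatives were DESeq2 size factors, other filters, DESeq2 1.42.0, limma-voom (limma 3.58.1), each library left out and lane 4 alone. Members with at least 5 CPM in a library are given in every library, and others by counts. Members, families and lists were chosen with earlier results of these data known.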

Additional observations from a re-analysis of the deposited data

How the results depend on the processing

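Of the 32 tested members, 27 kept their direction under each of the 11 alternatives that tested them; the stricter filter tested 25 members, and Il5ra was not tested without deleted 2 or without deleted 4 either. The exceptions were Il13ra1, at -0.10 with limma-voom, -0.30 without deleted 6 and -0.37 in lane 4 alone, Il17rc, at -0.39, -0.07 and -0.59 in the same settings, Il18rap, at 0.25 without deleted 6, and, without deleted 2, Il18r1 at -0.0047 and Il2ra at -0.14; the causes were not tested. With a single library left out, their log2 fold changes ran from -0.30 to 0.97 for Il13ra1, -0.07 to 1.86 for Il17rc, -0.93 to 0.25 for Il18rap, -0.0047 to 1.00 for Il18r1 and -0.14 to 1.44 for Il2ra. No paired analysis was possible because the groups share no replicate number.

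Across all genes edgeR called 0 higher and 0 lower in the main analysis, 163 and 115 with no filter, 927 and 492 with DESeq2, 1230 and 947 with limma-voom, and 211 and 131 in lane 4. Leaving out single libraries gave 0 to 1245 higher and 0 to 800 lower, the upper values without deleted 6. Members called higher and lower numbered 7 and 1 with DESeq2, 9 and 4 with limma-voom, 1 and 1 in lane 4, 0 and 1 with no filter, and 0 to 8 and 0 to 3 with single libraries left out. Partner, adaptor and ligand genes numbered 6 and 1 with DESeq2, 6 and 5 with limma-voom, 1 and 1 in lane 4, 1 and 0 with no filter, and 0 to 9 and 0 to 3 with single libraries left out. The members' median log2 fold change of 0.51 was 0.42 with no filter, 0.29 with the stricter filter, 0.22 with limma-voom and 0.078 in lane 4, and ran from 0.22 (without deleted 6) to 0.69 (without wild-type 3) with single libraries left out. DESeq2 size factors in edgeR changed no call.

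Depth limits Il5ra, Il9r, Il2ra, Il17rb, Il17rc and Il31ra, which stayed under 2 CPM, and the 7 members that were not tested.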
